A study of Mus musculus with 42 samples.

Results

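The 59 genes described here act in mitosis, the division of the duplicated chromosomes between 2 daughter cells. They were taken by symbol from a list of cyclins, kinases, kinetochore, spindle, chromosome and cytokinesis genes, and all 59 of 59 were found among the 11160 genes of the deposited count table. The table comes from RNA sequencing of bone marrow-derived macrophages of mice, differentiated under M-CSF. One genotype was wild type (WT), and the other carried a knockout (KO) of MS4A4A, which codes for a membrane protein of macrophages. Cells of either genotype were collected untreated, or at 2, 8 and 24 h of exposure to vehicle or to dexamethasone (Dex, 1 µM), a synthetic glucocorticoid. The 14 groups held 3 libraries each, 42 in all. Every group shared the culture in M-CSF, detachment with Accutase, replating and a wait until the following day before stimulation. The labels give no strain, age or sex of the mice, no knockout allele, and no word on whether the 3 replicates of a group were separate cultures, animals or pools. The p-values below therefore measure the spread between these libraries, which may be technical.

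Entry into mitosis is driven by the kinase Cdk1 with a cyclin, and the genes for both are transcribed late in the cell cycle together with those of the spindle and of the kinetochore, the protein plate that ties chromosomes to microtubules. The spindle checkpoint holds cells until every chromosome is attached, after which the anaphase-promoting complex marks securin and cyclin B for destruction and the chromosomes part. Macrophages grown with M-CSF divide during culture, and glucocorticoids are known to slow the division of many cell types.

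The libraries held 10140200 to 33528400 estimated counts (median 27998700), and the mitosis genes took 0.0450 to 0.226% of them. The lowest count of a member in any library was 10, for Spc24. Ms4a4a, the targeted gene, was lower in KO than in WT without Dex (log2 fold change -1.05 ± 0.11, ± SE as for all log2 values below) but was counted in every KO library, from 24.2 CPM upwards (CPM, the counts relative to the library total after trimmed-mean scaling). It lay below every WT library of the same condition in 20 of the 21 KO libraries. The exception, the library labelled KO vehicle 24 h replicate 2, read 179 CPM, against 93 and 53.5 CPM in replicates 1 and 3. The WT libraries of that condition read 142 to 213 CPM, so its level of the targeted gene goes against its label. Ms4a4a was itself far higher after 24 h of Dex, at 1499 to 1683 CPM in WT and 747 to 802 CPM in KO. Without the exception the difference of KO from WT without Dex was -1.19 ± 0.08. The GENCODE annotation of GRCm38 placed 58 of the 59 genes, on 17 chromosomes. The Dex label was checked with 6 known glucocorticoid targets, of which Fkbp5 stood at 298 to 1156 CPM in the 18 Dex libraries and at 10.9 to 69.9 CPM in the others. The highest of the others, 69.9 CPM, was that same library, against 14.2 and 16.9 CPM in replicates 1 and 3. Of the other targets, Tsc22d3, Per1, Klf9 and Dusp1 were also highest there among the libraries without Dex, and Zbtb16 was not. Whether the genotype or the treatment of that library differs from its label was not tested. Where stated, counts of called members and medians over the 59 genes at 24 h are also given without that library. The other values at 24 h include it, among them counts without overlap, medians by role and the other gene lists. All 10 macrophage markers were measured, with a summed level of 18387 to 42814 CPM.

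Since the members move together in what follows, their promoters are shown first. RefSeq promoter windows on GRCm38.p6, each of 300 bases around the annotated start, were matched by symbol for 50 of the 59 genes, with 52 windows. Aurkb, Ccna2, Foxm1, Incenp, Kif20a, Sgol1, Smc4, Spc24 and Tpx2 had no entry. The windows were searched on both strands for TTTGAA, the core of the cell cycle homology region (CHR) known from late cell cycle genes, for CCAAT, the box bound by the factor NF-Y, and for TTCCCGC, an E2F-type motif. Each motif was searched by itself, so neighbouring matches may share a base. The CHR core was found in 39 of the 52 windows (75%), against 17.9% of all 32851 mouse windows. A CCAAT box was found in 38 (73.1%, against 37.4% of all), and both in 63.5% (against 6.95%). TTCCCGC was found in 3.85% of the members' windows and in 4.6% of all. The stretch just before the start is printed for 4 members with a CHR core there, a cyclin-dependent kinase, a topoisomerase, a motor and a ubiquitin-conjugating enzyme, and for Bub1, which had no core and the lowest fold change after 24 h of Dex. Capitals mark TTTGAA or CCAAT on either strand.
Cdk1 (chr10:69352913-69353037, minus strand): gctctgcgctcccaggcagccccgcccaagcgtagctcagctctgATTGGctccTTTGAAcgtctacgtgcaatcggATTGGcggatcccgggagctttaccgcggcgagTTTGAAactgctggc
Top2a (chr11:99024190-99024314, minus strand): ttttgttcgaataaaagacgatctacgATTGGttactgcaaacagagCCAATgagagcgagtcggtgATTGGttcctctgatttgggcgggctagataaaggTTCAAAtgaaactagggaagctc
Kif11 (chr19:37376257-37376381, plus strand): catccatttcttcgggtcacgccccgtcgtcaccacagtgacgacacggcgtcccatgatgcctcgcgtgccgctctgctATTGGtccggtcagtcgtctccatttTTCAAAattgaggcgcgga
Ube2c (chr2:164769804-164769928, plus strand): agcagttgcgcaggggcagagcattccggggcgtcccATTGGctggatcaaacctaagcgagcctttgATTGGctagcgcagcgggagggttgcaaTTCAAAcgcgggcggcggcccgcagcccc
Bub1 (chr2:127831860-127831984, minus strand): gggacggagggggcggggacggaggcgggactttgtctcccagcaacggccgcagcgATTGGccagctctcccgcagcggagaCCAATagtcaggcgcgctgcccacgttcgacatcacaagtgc
The first 4 hold both motifs in this stretch, and Bub1 holds CCAAT alone. The windows follow the RefSeq start, which lay within 100 bases of the outermost GENCODE start for 43 of the 52 and farther off for 9, Pttg1 and Mad2l1 among them, so other starts of those genes were not searched. In the 39 windows with a CHR core, the core nearest to the start lay at a median position of 2 bases from it, with 89.7% within 60 bases. Over the 5878 windows with a core in the whole set the median was -115 and the share 30.8%. A match is a description of letters, not evidence of a bound site.

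**Figure D1:**
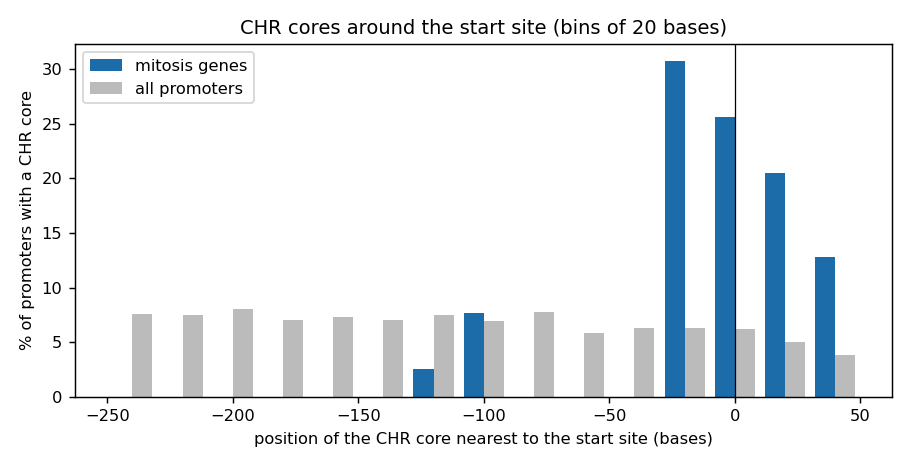
Position of the CHR core nearest to the annotated start, in bases, as the percent of windows that hold a core, in bins of 20 bases for the mitosis genes (blue) and for all promoter windows (grey). The members' cores gather around the start (89.7% within 60 bases), while those of all promoters are spread over the window (30.8%).

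The mean log2 CPM over the 59 genes gives their level by library. It stayed within 4.66 to 4.93 as group means in all groups up to 8 h, fell a little after 24 h with vehicle, and was far lower after 24 h with Dex. The WT libraries after 24 h with vehicle read 4.89, 4.57 and 4.14, and the KO libraries 4.43, 4.24 and 4.38. After 24 h with Dex the WT libraries read 3.38, 2.57 and 2.42, and the KO libraries 2.37, 2.57 and 2.37. The highest of the 6 Dex libraries, WT replicate 1, lay below the lowest of the 6 vehicle libraries. The 24 h medians for Dex against vehicle with genotypes averaged, and for KO against WT with Dex, are also given without WT replicate 1. That library stood apart from the other 5 Dex libraries.

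**Figure D2:**
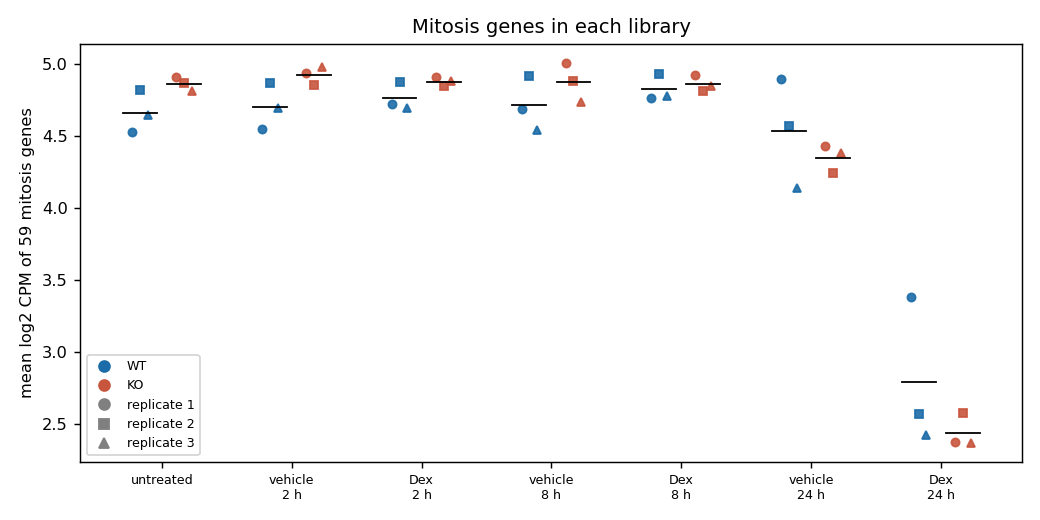
Mean log2 CPM of the 59 mitosis genes in each of the 42 libraries, by time and treatment, with WT in blue and KO in red (symbols, replicate numbers; black lines, group means). The 6 libraries after 24 h of Dex sit between 2.37 and 3.38, all below the 36 other libraries, of which the lowest is at 4.14.

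After 24 h, Dex lowered nearly the whole set in both genotypes. With WT and KO averaged, 58 of the 59 genes were lower than with vehicle at the same time (edgeR quasi-likelihood test, Benjamini-Hochberg over all genes, called at an adjusted p of 0.05), and 0 were higher. Of all 11160 genes 53.6% were called in this comparison, 26.8% as lower. The members' median log2 fold change was -1.94, so that the median member stood at 26.1% of its vehicle level, while the median over all genes was 0.01. In WT alone 58 genes fell (41.7% of all genes called, 21% as lower) with a median of -1.80, and in KO alone 58 (38.3% of all called) with a median of -2.09. With 1 library left out, the WT median ran from -2.19 to -1.59 and the KO median from -2.14 to -2.02. The order of the 2 medians thus rested on single libraries. A fall of more than 4-fold was seen for 25 genes and one between 2-fold and 4-fold for 28, and 6 changed by less than 2-fold, Pttg1 included. For 57 of the 59, each of the 6 Dex libraries lay below each of the 6 vehicle libraries, as for 14.8% of all genes (28.7% without overlap in either direction). Within each of the 6 same-numbered pairs of a Dex and a vehicle library, 58 or 59 members were lower with Dex, with medians from -1.55 to -2.21, against 48.3 to 50.9% of all genes. By the correlation of equal numbers, the libraries of this comparison were taken as paired in WT but not in KO. Without WT Dex 24 h replicate 1 the median was -2.15, without the library labelled KO vehicle 24 h replicate 2 it was -1.97 (in KO alone -2.14), and 58 genes were called each time. In RNA from whole cultures, fewer dividing cells and less of these transcripts per cell cannot be told apart.

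**Figure D3:**
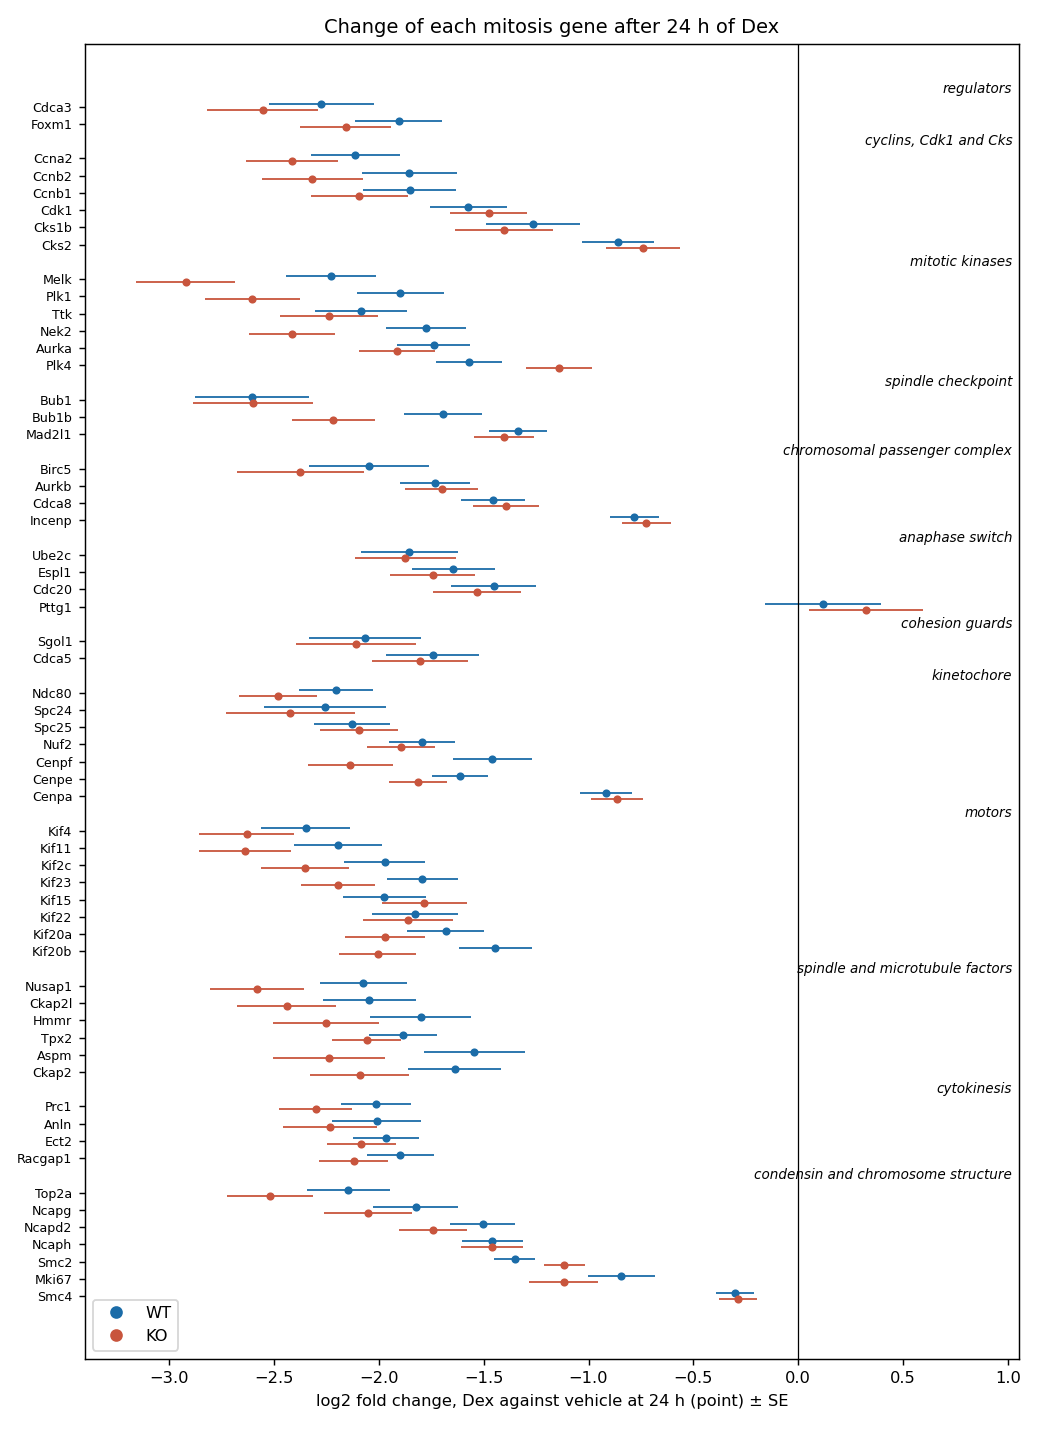
Log2 fold change of each of the 59 genes after 24 h of Dex against vehicle, ordered by role, with WT in blue and KO in red (points, estimates; bars, SE). All points but the pair for Pttg1 lie left of 0, from -2.92 (Melk in KO) to -0.29 (Smc4 in KO).

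Among the engines of mitotic entry, all 6 of the cyclin, Cdk1 and Cks genes fell, with a median of -1.75. In WT, Ccnb1 read 58.6, 43.8 and 28.7 CPM in replicates 1, 2 and 3 with vehicle and 19.8, 9.95 and 6.54 CPM with Dex. The KO values were 37, 34.9 and 36.7 CPM with vehicle and 7.6, 9.77 and 8.06 CPM with Dex. The B-type cyclin fell 3.92-fold (log2 -1.97 ± 0.16 SE, edgeR adjusted p = 1.65e-12), without overlap between Dex and vehicle libraries. Values in brackets after a gene are log2 fold changes ± SE of the comparison at hand. Cdk1, its kinase partner, read 63.1, 54.3 and 36.8 CPM with vehicle and 24.1, 14.7 and 13.1 CPM with Dex in WT. The KO libraries read 49.7, 42.2 and 43.1 and 15.7, 19 and 13.7 CPM. It was lower by a smaller factor, 2.88-fold (log2 -1.52 ± 0.13 SE, edgeR adjusted p = 5.97e-12), again without overlap. Ccna2, the cyclin of S phase and early mitosis, fell the most of the 6 (-2.26 ± 0.15), and Cks2, a small subunit of the Cdk complexes, the least (-0.80 ± 0.12). Ccna2 shares 510 exonic bases with Exosc9 on the opposite strand, and the sources used here do not state whether reads were assigned by strand. Exosc9 itself had a log2 fold change of -0.01 ± 0.05 and was not called.

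The 6 mitotic kinases all fell, with a median of -2.13. In WT, Plk1 read 24.3, 16.6 and 12.9 CPM in replicates 1, 2 and 3 with vehicle and 7.7, 3.3 and 3.51 CPM with Dex. In KO the libraries stood at 14.7, 17.5 and 16.2 CPM with vehicle and 2.57, 3.17 and 2.19 CPM with Dex. Plk1, the polo-like kinase of spindle assembly, fell 4.76-fold (log2 -2.25 ± 0.15 SE, edgeR adjusted p = 2.6e-14), and the highest Dex library, WT replicate 1, still lay below every vehicle library. Melk, a kinase of the AMPK family expressed in dividing cells, fell the most of the kinases (-2.57 ± 0.16). Nek2 and Aurka, kinases of the centrosome, had -2.09 ± 0.14 and -1.83 ± 0.13, and Ttk, also named Mps1, which starts the checkpoint signal, had -2.16 ± 0.16. The smallest change was that of Plk4, the kinase of centriole duplication (-1.36 ± 0.11).

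Bub1, a kinase of the spindle checkpoint, had the largest fall of all 59 genes. Its locus is chr2:127801122-127831865, minus strand, GRCm38. In WT, Bub1 read 21.8, 15.6 and 7.62 CPM in replicates 1, 2 and 3 with vehicle and 3.47, 1.93 and 2.09 CPM with Dex. In KO it read 9.49, 10.3 and 14.1 CPM with vehicle and 1.4, 2.54 and 1.62 CPM with Dex. The WT vehicle libraries spread widely, and every Dex library was lower than the lowest of them, with a fall of 6.07-fold (log2 -2.60 ± 0.20 SE, edgeR adjusted p = 3.13e-13). Its partners Bub1b (BubR1) and Mad2l1 (Mad2), which block the anaphase activator, had -1.96 ± 0.14 and -1.37 ± 0.10. No CHR core was found in the promoter windows of Bub1 or Melk. Over the 37 matched genes with a core the median log2 fold change was -1.94, and over the 13 without one, Pttg1 among them, it was -1.84.

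All 4 genes of the chromosomal passenger complex, which corrects faulty attachments, fell (median -1.57). In WT, Aurkb read 22, 19.9 and 14.7 CPM in replicates 1, 2 and 3 with vehicle and 7.85, 4.9 and 4.27 CPM with Dex. The KO values were 15.5, 12.4 and 16.5 CPM with vehicle and 4.26, 5.11 and 4.25 CPM with Dex. Its kinase Aurkb fell 3.29-fold (log2 -1.72 ± 0.12 SE, edgeR adjusted p = 5.13e-14) without overlap. Birc5 (survivin), which anchors the complex at the centromere, read 43.1, 33.8 and 19 CPM with vehicle and 13.8, 5.94 and 3.34 CPM with Dex in WT. The KO libraries read 28, 25.6 and 25.7 and 4.33, 6.31 and 4.6 CPM. It fell further, 4.63-fold (log2 -2.21 ± 0.21 SE, edgeR adjusted p = 6.24e-11) again without overlap. Cdca8 (borealin) had -1.42 ± 0.11. Incenp, the scaffold of the complex, changed least (-0.75 ± 0.08).

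Of the 4 genes of the anaphase switch 3 fell. Cdc20, which activates the anaphase-promoting complex, had -1.49 ± 0.15, Ube2c, its ubiquitin-conjugating enzyme, -1.86 ± 0.17, and Espl1, separase, the protease that cuts cohesin, -1.69 ± 0.14. Pttg1, securin, which holds separase in check, was the sole member not called. Its locus is chr11:43420250-43426251, minus strand, GRCm38. In WT, Pttg1 read 25.7, 23.5 and 13 CPM in replicates 1, 2 and 3 with vehicle and 29.5, 28.1 and 10.1 CPM with Dex. In KO the libraries stood at 30.5, 22.9 and 27.4 CPM with vehicle and 36.5, 27.3 and 37 CPM with Dex. The Dex and vehicle libraries of Pttg1 overlapped, and the log2 difference was 0.22 ± 0.19 (edgeR adjusted p = 0.353). Replicate 3 was the lowest WT library for this gene in each of the 7 WT groups, and KO replicate 2 the lowest KO library in 6 of 7. The cohesion guards Sgol1 (shugoshin) and Cdca5 (sororin) both fell (-2.09 ± 0.20 and -1.77 ± 0.16).

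The 7 kinetochore genes all fell, with a median of -1.84. Ndc80, the microtubule-binding subunit that gives its complex its name, had the lowest p of all members. In WT, Ndc80 read 26.9, 21.1 and 15.7 CPM in replicates 1, 2 and 3 with vehicle and 6.64, 3.62 and 3.6 CPM with Dex. In KO it read 20.5, 17 and 19.3 CPM with vehicle and 2.75, 3.73 and 3.68 CPM with Dex. All Dex libraries lay under all vehicle libraries, with a fall of 5.07-fold (log2 -2.34 ± 0.13 SE, edgeR adjusted p = 8.78e-17). Its partners in the complex had -1.84 ± 0.11 (Nuf2), -2.34 ± 0.21 (Spc24) and -2.11 ± 0.13 (Spc25). Cenpe, a kinetochore motor, had -1.71 ± 0.10, and Cenpf -1.80 ± 0.14. Cenpa, the histone H3 variant that marks the centromere, changed least (-0.89 ± 0.09).

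All motors, spindle factors and cytokinesis genes fell. The 8 kinesins fell by 1.72 to 2.49 on the log2 scale. The largest falls were those of Kif4, which works on chromosomes and the central spindle (-2.49 ± 0.16), and Kif11 (Eg5), which pushes the spindle poles apart (-2.42 ± 0.15). The 6 spindle and microtubule factors fell by 1.86 to 2.33, with Nusap1 (-2.33 ± 0.15) and Ckap2l (-2.24 ± 0.16) lowest and Tpx2, the activator of Aurora A, at -1.97 ± 0.12. The 4 cytokinesis genes ranged from -2.16 ± 0.12 for Prc1, which bundles the midzone microtubules, to -2.01 ± 0.11 for Racgap1 of the centralspindlin complex. Ect2 and Anln, which build the contractile ring, had -2.02 ± 0.11 and -2.12 ± 0.15. Opposite-strand overlap with other counted genes touches Kif4 (with Pdzd11), Kif20a (Cdc23), Prc1 (Rccd1), Ncapg (Lcorl), Cdc20 (Elovl1) and Nusap1 (Oip5), besides Ccna2. These partners had log2 fold changes of -0.15 ± 0.08, -0.02 ± 0.06, -0.03 ± 0.15, 0.09 ± 0.08, -0.15 ± 0.05 and -1.90 ± 0.13 in that order. Oip5 is itself a centromere gene. Exons of Ube2c, Nek2, Cdca8, Ckap2l, Plk1 and Kif22 overlap opposite-strand genes that are absent from the count table. Those of Foxm1, Ncapd2 and Top2a overlap such absent genes on the same strand.

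Genes of chromosome structure fell by uneven amounts, from -2.33 to -0.29. Top2a, the topoisomerase that untangles sister chromatids, read 127, 92.5 and 72.8 CPM with vehicle and 33.5, 16.1 and 16.5 CPM with Dex in WT. The KO libraries read 84, 74.5 and 85.6 and 13.5, 17.6 and 11.3 CPM. The fall was 5.03-fold (log2 -2.33 ± 0.14 SE, edgeR adjusted p = 1.56e-15), without overlap. Mki67, which codes for the proliferation antigen Ki-67 that coats mitotic chromosomes, read 61.3, 47.5 and 52.4 CPM with vehicle and 36.8, 20.1 and 33.1 CPM with Dex in WT. The KO libraries read 47, 43.6 and 51.7 and 23.9, 21.3 and 20.3 CPM. The fall was 1.97-fold (log2 -0.98 ± 0.12 SE, edgeR adjusted p = 7.59e-09), without overlap. The condensin subunits that occur in condensin I alone, Ncapg, Ncapd2 and Ncaph, had -1.94 ± 0.15, -1.62 ± 0.11 and -1.46 ± 0.10. The ATPase pair common to both condensins fell less, Smc2 by 1.23 ± 0.07 and Smc4 by 0.29 ± 0.06. In WT, Smc4 read 91.9, 81.1 and 62.9 CPM in replicates 1, 2 and 3 with vehicle and 67.8, 61.2 and 62.8 CPM with Dex. The KO values were 77.6, 75.3 and 69 CPM with vehicle and 60.1, 62 and 59.8 CPM with Dex. The Smc4 libraries overlapped between Dex and vehicle, although the difference passed the test (edgeR adjusted p = 0.000263).

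Of the regulators, Foxm1, the forkhead factor of late cell cycle genes, read 15.7, 12.8 and 9.71 CPM with vehicle and 5.33, 2.28 and 2.62 CPM with Dex in WT. The KO libraries read 12.8, 9.47 and 13.6 and 2.9, 2.43 and 2.67 CPM. The fall was 4.09-fold (log2 -2.03 ± 0.15 SE, edgeR adjusted p = 1.73e-13), without overlap. Cdca3, which helps to destroy the Wee1 kinase, had -2.41 ± 0.18.

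The summed levels of some markers of other cells also shifted at 24 h. Of the 8 myeloid progenitor markers 4 were measured (Kit, Cd34, Mpo and Flt3), with a summed level of 14.3 to 38.4 CPM in all groups up to 8 h, 9.62 to 15.2 CPM after 24 h with vehicle and 5.79 to 9.29 CPM after 24 h with Dex. The 4 measured of 6 dendritic markers went from 11.1 to 17.3 CPM with vehicle to 5.11 to 7.23 CPM with Dex, and Cd4, the 1 measured of 9 lymphocyte markers, from 7.74 to 14.3 CPM to 1.68 to 6.23 CPM. The 5 measured of 8 stromal markers read 9.65 to 29.6 CPM with vehicle and 20.7 to 102 CPM with Dex, and the macrophage sum was 31041 to 40147 CPM with vehicle and 34841 to 42814 CPM with Dex. The 5 measured of 9 neutrophil markers read 118 to 195 CPM with vehicle and 127 to 187 CPM with Dex. Of the 6 erythroid and megakaryocyte markers Pf4 alone was measured, and of the mast cell and basophil markers 0 of 4 were. The part of these cells in the fall of the mitosis genes was not tested.

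At 2 and 8 h the set as a whole was close to its vehicle level. At 2 h, 1 member was lower with Dex and 0 were higher (14.5% of all genes called, 8.14% as higher and 6.41% as lower), with a median of 0.03. A replicate block gave 2 calls, 1 in each direction. At 8 h, 5 were higher and 1 was lower (52.2% of all genes called), with a median of 0.02. The share of members called at 8 h, 10.2%, was thus far under that of all genes. Within WT, 1 member was lower at 2 h (9.02% of all genes called, 5.85% as higher and 3.17% as lower). At 8 h in WT 1 was higher (37% of all). Within KO, 2 were lower at 2 h (10.4% of all, 5.76% as higher and 4.63% as lower), Cenpa and Incenp. At 8 h in KO 1 was higher and 1 lower (38.5% of all). The change of the Dex effect from 8 to 24 h was itself tested: 58 members had a lower effect at 24 h (25.9% of all genes called, 16% as lower and 9.92% as higher), with a median difference of -1.97 (-2.01 without the library labelled KO vehicle 24 h replicate 2), and Pttg1 was again the exception (log2 -0.19 ± 0.27, edgeR adjusted p = 0.671).

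**Figure D4:**
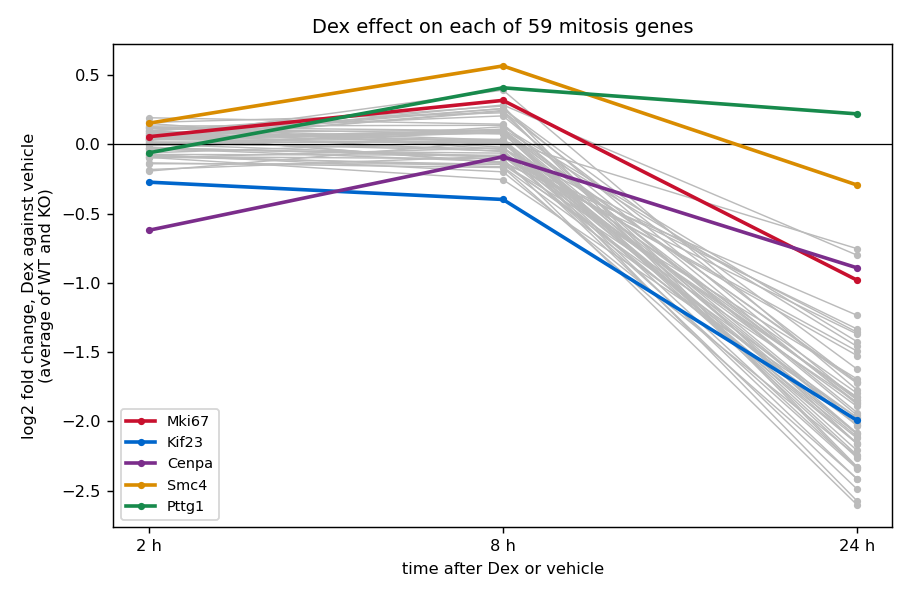
Log2 fold change of the 59 genes, Dex against vehicle with WT and KO averaged, after 2, 8 and 24 h. The medians are 0.03, 0.02 and -1.94, with Cenpa lowest at 2 h (-0.62) and Smc4 highest at 8 h (0.57).

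Cenpa (chr5:30666777-30674830, plus strand, GRCm38) was the member that differed at 2 h. In WT it read 46.5, 57.2 and 51 CPM untreated, 77.5, 72.3 and 74.5 CPM after 2 h with vehicle and 43, 49.1 and 45.6 CPM after 2 h with Dex. The KO values were 53.1, 48.1 and 40.4, then 82.3, 65.5 and 69.8, and 55.4, 51.1 and 43.8 CPM. Vehicle libraries at 2 h were higher than both other groups without overlap, while the untreated and Dex libraries covered the same range. The log2 change was 0.58 ± 0.09 for vehicle against untreated cells (edgeR adjusted p = 1.23e-05) and -0.62 ± 0.09 for Dex against vehicle (edgeR adjusted p = 9.18e-07). Both calls held in each of the 12 fits that left out 1 library. At 8 h the Dex effect was -0.09 ± 0.09 and not called, and the difference between the effects at 8 and 2 h passed the test (0.53 ± 0.12; edgeR adjusted p = 0.00101; 31% of all genes called).

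Smc4 (chr3:69004738-69034623, plus strand, GRCm38) was the member that rose most at 8 h. With vehicle the WT libraries read 81.5, 85 and 80.4 CPM and the KO libraries 95.2, 86.3 and 76.3 CPM. With Dex they read 119.7, 128 and 133 CPM in WT and 132, 119 and 116 CPM in KO, without overlap. The rise was 0.57 ± 0.06 (edgeR adjusted p = 4.01e-09) and was called in all 12 fits with 1 library left out, and the effect was larger at 8 h than at 2 h (0.41 ± 0.09; edgeR adjusted p = 0.000624). Smc4 and Cenpa were the only 2 members called in the comparison of 8 with 2 h.

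The other calls at 8 h were small. Kif23, the kinesin of centralspindlin, was lower (-0.40 ± 0.11; edgeR adjusted p = 0.00325) and kept its call in 12 of 12 fits without 1 library. Higher were Cdca5 (0.39 ± 0.14) and Mki67 (0.32 ± 0.11), called in 11 and 10 of the 12 fits, and Ncapd2 (0.26 ± 0.10) and Cks2 (0.28 ± 0.12), called in 6 and 5. Depending on the library left out, 2 to 8 members were called, the lowest count without WT Dex 8 h replicate 2. Fitted on the compared groups alone the count was 14, with 9 higher and 5 lower. The share of all genes called in that fit is not given here, and the share printed above belongs to the fit of all groups.

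**Figure D5:**
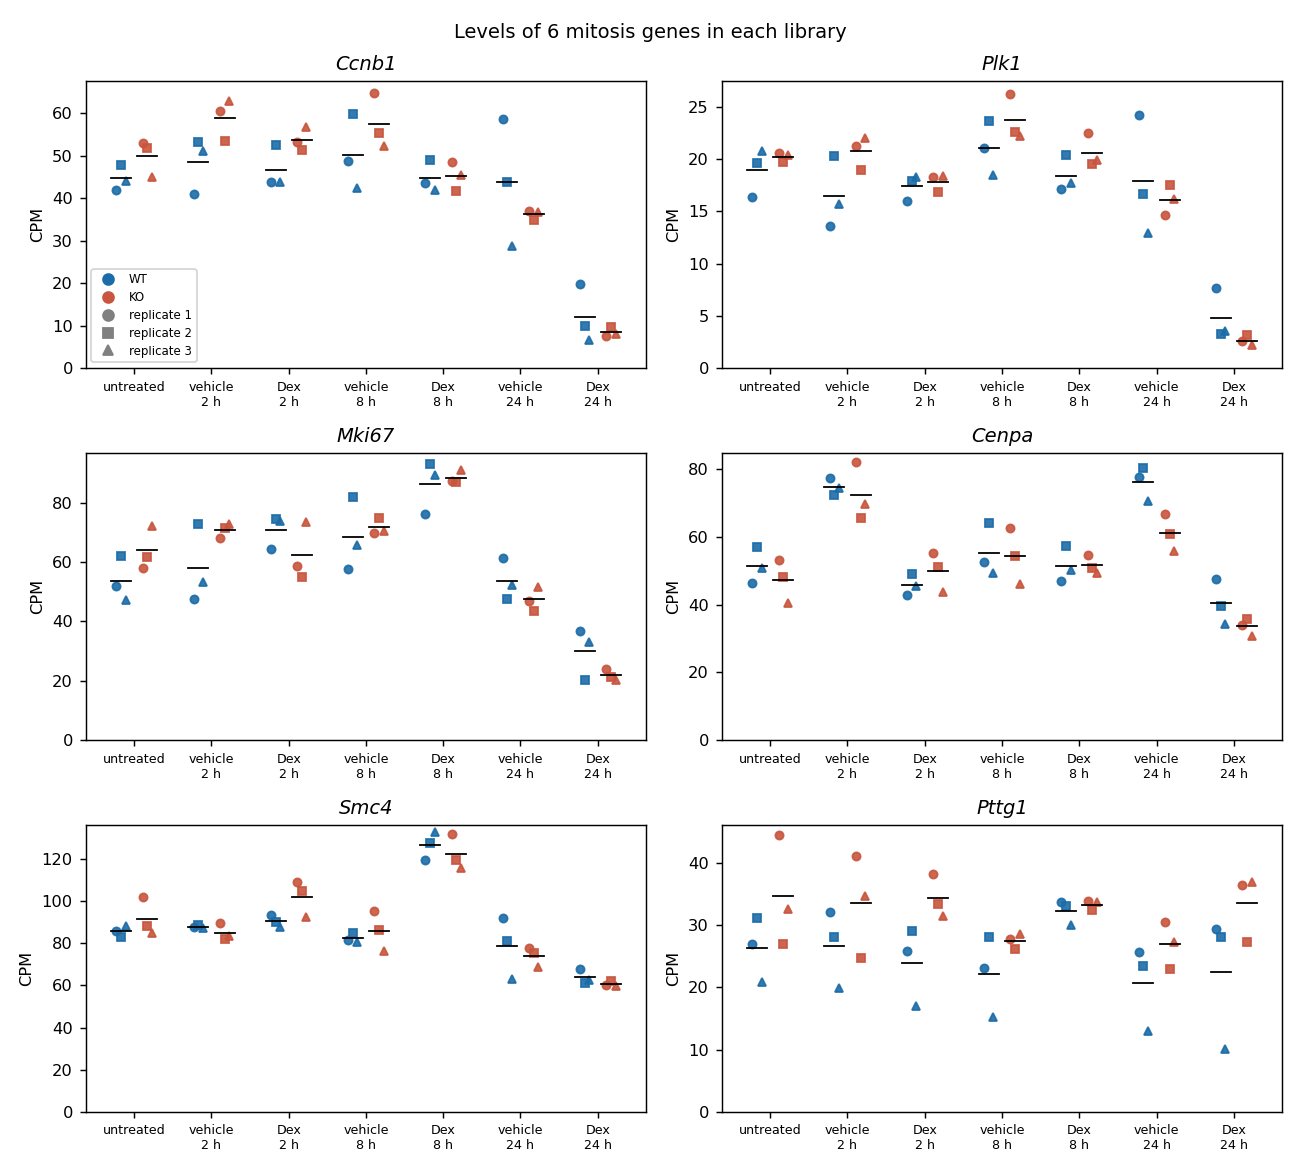
CPM of Ccnb1, Plk1, Mki67, Cenpa, Smc4 and Pttg1 in each of the 42 libraries, by time and treatment, with WT in blue and KO in red (symbols, replicate numbers; black lines, group means). Cenpa is higher after 2 h of vehicle than in untreated or Dex libraries of that time, Smc4 is highest after 8 h of Dex (116 to 133 CPM), and Pttg1 is the one gene of the 6 not called after 24 h of Dex.

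Vehicle groups were also set against untreated cells. Time in culture and the addition of vehicle cannot be told apart in this comparison. Against untreated cells 1 member, Cenpa, was higher at 2 h (13.8% of all genes called, 7.03% as higher and 6.72% as lower). At 8 h 2 were higher and 1 lower (18.2% of all called, 8.49% as higher and 9.66% as lower): Cdc20 (0.46 ± 0.13), called in 12 of 12 fits without 1 library, Aspm (0.43 ± 0.16), a protein of the spindle poles, in 3, and Plk4 (-0.30 ± 0.10) in 4. The replicate block gave 5 calls, with 4 higher and 1 lower. At 24 h, 27 were lower and 1 was higher (31% of all genes called, 15.4% as lower), with a median of -0.28. The lowest p among the falls were those of Kif15, a spindle kinesin (-0.67 ± 0.12; edgeR adjusted p = 7.37e-05), Aurkb (-0.58 ± 0.11; 0.00011) and Espl1 (-0.59 ± 0.13; 0.000472), and the largest fall was that of Sgol1 (-0.68 ± 0.17). Cenpa went the other way (0.47 ± 0.09; edgeR adjusted p = 7.27e-05). The vehicle and untreated libraries were apart without overlap for 1 gene of the 59, Plk4 (12.4% of all genes). The count rested on single libraries: 15 members were called without WT vehicle 24 h replicate 3, the lowest of its group, 18 without WT untreated replicate 2, 20 without the library labelled KO vehicle 24 h replicate 2, and 42 without WT vehicle 24 h replicate 1, the highest of its group.

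Set against untreated cells, which the vehicle comparisons share, the Dex groups gave the same order of times. After 2 h of Dex edgeR called 0 members (23.8% of all genes called), and DESeq2 likewise 0. There were 2 members with an unadjusted p under 0.05 (3.39%, against 33.2% of all genes). On the compared groups alone edgeR called 6, and the share of all genes in that fit is not given here. After 8 h 10 were higher and 5 lower (60.4% of all called, 29.8% as lower), led by Smc4 (0.49 ± 0.06), Mki67 (0.57 ± 0.11) and Cks2 (0.41 ± 0.12) upwards and by Kif23 (-0.47 ± 0.11), Smc2 (-0.22 ± 0.07) and Plk4 (-0.33 ± 0.10) downwards. After 24 h 58 were lower (61% of all called), with a median of -2.23, the lowest for Bub1 (-3.10 ± 0.20), and Pttg1 again was not called (-0.14 ± 0.19; edgeR adjusted p = 0.552).

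With all libraries kept, edgeR called no member between KO and WT. Averaged over the 4 conditions without Dex, edgeR called 0 of 59 (0.224% of all genes called), and DESeq2 also called 0. An unadjusted p under 0.05 was reached by 4 (Pttg1, Cenpe, Nuf2 and Cenpa), 6.78% of the members against 8.36% of all genes. The edgeR count was 0 within each of the 7 conditions, and the share of all genes called was 0% in untreated cells, 0.00896% after 2 and after 8 h of vehicle, 0% after 24 h of vehicle and after 2 and 8 h of Dex, and 0.0448% after 24 h of Dex. At an unadjusted p under 0.05 stood 4 members in untreated cells, 2, 0 and 6 after 2, 8 and 24 h of vehicle, and 0, 0 and 32 after 2, 8 and 24 h of Dex. The shares of all genes were 3.07% in untreated cells, 4.44%, 1.95% and 5.95% with vehicle, and 8.49%, 1.59% and 7.63% with Dex, the last against 54.2% of the members. DESeq2 called 0 in the first 6 of these and 5 after 24 h of Dex, which were Cenpf, Nek2, Aspm, Plk1 and Nusap1. Over all 11160 genes DESeq2 called 25 after 24 h of Dex.

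After 24 h of Dex the estimated log2 difference of KO from WT was negative for 57 of 59 members, all but Plk4 and Pttg1, with a median of -0.45. The KO and WT libraries overlapped for most of these members. Cenpf had the lowest p, with 9.16, 4.05 and 5.25 CPM in WT and 3.75, 3.02 and 3.68 CPM in KO (-0.82 ± 0.21; edgeR adjusted p = 0.262). The difference rested on WT replicate 1: without that library the median was -0.10 and edgeR called 0. Without WT replicate 2 it called 3 (Cenpf, Nek2 and Kif20b) with a median of -0.60, and without WT replicate 3 it called 0 with a median of -0.62. The shares of all genes called in these fits are not given here. In the conditions without Dex the median difference of KO from WT was 0.21 in untreated cells, 0.21 and 0.16 after 2 and 8 h of vehicle and -0.23 after 24 h of vehicle. These medians moved with single libraries. In untreated cells the range was 0.13 (without WT replicate 1) to 0.30 (without WT replicate 2). After 2 h of vehicle it was 0.13 to 0.31, without the same numbers, and after 8 h 0.08 (without WT replicate 3) to 0.26 (without WT replicate 2), with 0.10 without KO replicate 1. After 24 h of vehicle it was -0.42 (without WT replicate 3) to -0.03 (without WT replicate 1), and -0.17 without the library labelled KO replicate 2.

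The Dex effect itself was compared between genotypes in the same model. At 2, 8 and 24 h edgeR called 0 members (0% of all genes called each time), and DESeq2 called 0. An unadjusted p under 0.05 was reached by 3, 0 and 5 members (5.08%, 0% and 8.47%, against 8.84%, 1.19% and 5.05% of all genes). At 24 h the effect was lower in KO for 46 members, with a median difference of -0.22. This median was 0.16 without WT Dex replicate 1 and -0.35 without WT Dex replicate 2 or 3. It was -0.43 without WT vehicle replicate 1, -0.03 without WT vehicle replicate 3, and -0.27 without the library labelled KO vehicle replicate 2. The most negative was Plk1, which fell by 1.90 ± 0.21 in WT and fell by 2.60 ± 0.23 in KO (difference -0.71 ± 0.31; edgeR adjusted p = 0.89), and the most positive Plk4 (0.43 ± 0.22; edgeR adjusted p = 0.89). Across the 59 genes the effects in WT and KO had a Pearson r of 0.925 and a Spearman rho of 0.853, a description over genes that come from the same libraries and are not independent replicates.

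Other genes of the division cycle, listed by function, were counted in the same way for Dex against vehicle at 24 h, where 26.8% of all genes were lower and 26.8% higher. Of 68 further mitosis genes 61 fell and 3 rose, with a median of -1.48. The lowest p were those of Cenpi (-2.12 ± 0.11), a centromere protein, Ska3 (-2.57 ± 0.14), an outer kinetochore protein, and Esco2 (-2.95 ± 0.16), which acetylates cohesin. The 3 that rose were Ncapg2 (0.74 ± 0.12), a subunit of condensin II, Mis18a (0.66 ± 0.09), which prepares centromeres for Cenpa, and Wee1 (0.47 ± 0.07), the kinase that inhibits Cdk1. All 39 genes of S phase were measured, and 37 fell and 0 rose, with a median of -1.37 and the lowest p for Mcm6 (-1.51 ± 0.07), Lig1 (-2.10 ± 0.10) and Mcm5 (-2.70 ± 0.13).

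Genes of the anaphase-promoting complex and of cohesin, which work in mitosis but also outside it, had medians near 0. Of 16 core subunits and partners of the anaphase-promoting complex 5 fell and 2 rose, with a median of -0.09, and of 10 cohesin genes 3 fell and 1 rose, with a median of -0.01. The shares called, 43.8% and 40%, stood beside 53.6% of all genes. Of 22 regulators of cell cycle transcription 12 fell and 4 rose (72.7% called, median -0.27). Rbl1 (-1.35 ± 0.07), E2f8 (-2.89 ± 0.20) and Mybl2 (-2.45 ± 0.17) had the lowest p among those that fell, and E2f4 (0.16 ± 0.04) and Rb1 (0.21 ± 0.06) were among those that rose. Of the 18 listed CDK inhibitors and genes of G1 16 were measured, and 6 rose and 7 fell (81.2% called, median -0.17), with Btg1 (0.64 ± 0.10), Btg2 (0.46 ± 0.12) and Cdkn1b (0.54 ± 0.16), which codes for the inhibitor p27, up and Cdk6 (-1.14 ± 0.08), Cdkn1c (-1.89 ± 0.16) and Cdk2 (-0.64 ± 0.06) down.

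Some of these genes were called at the earlier times. Wee1 was the gene of the further mitosis list that rose at 2 h, with a log2 fold change of 1.72 ± 0.06. Its mean in WT was 20.6 ± 1.56 CPM (SD, n = 3) with vehicle and 74.1 ± 6.36 CPM with Dex. The KO means were 23.5 ± 3.03 and 70.8 ± 3.79 CPM. At 8 h it was still up (1.87 ± 0.07). At 8 h, when 6 of the 59 mitosis genes were called, 13 of the 39 S phase genes were lower and 4 higher (43.6% called, against 52.2% of all genes), led by Pcna (-1.12 ± 0.10), the sliding clamp of replication, Mcm2 (-0.91 ± 0.09) and Mcm6 (-0.58 ± 0.06). Of the genes of G1, 9 were higher and 5 lower at 8 h (87.5% called, against the same 52.2%). Among them Ccnd3 (1.01 ± 0.07), a D-type cyclin, and Btg1 (1.17 ± 0.10) were up. Down were Myc (-1.31 ± 0.18) and Ccnd1 (-1.15 ± 0.21), another D-type cyclin. Whether these changes bear on the fall of the mitosis genes at 24 h was not tested.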

How the data were processed

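RNA from 42 libraries (14 groups of 3) was sequenced, and the authors deposited a table of estimated counts for 11160 genes, with fastp, HISAT2, Salmon and GRCm38 named per the submitters' processing notes without version, role or order. Which annotation was used, whether strand was used in counting, and how genes were selected is not given in the sources used here. The lowest total of a gene was 256 counts, and 69.5% of values lay within 0.01 of a whole number. Estimated counts divide reads among similar transcripts, so members with close paralogs are less certain. Values were rounded to whole counts. Replicate libraries differed by more than counting noise (chi-square per degree of freedom 7.09 to 57.1 over 42 pairs). edgeR 4.0.16 (R 4.3.3) fitted 14 group means with trimmed-mean scaling, with 28 residual degrees of freedom, a quasi-likelihood F test for each of 28 contrasts and Benjamini-Hochberg adjustment over all genes, called at 0.05. Its filter on low counts removed 0 genes. CPM were scaled by the trimmed means, and log2 CPM used a prior count of 2 (alternative 0.5). Libraries held 10140200 to 33528400 counts, and low members such as Spc24 are the least precise.

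The members and lists were chosen with earlier results of these data known. Genes named are the members, up to 3 with the lowest p in each direction and those with the largest, smallest or opposite change, Mki67, Top2a, Ccnb1, Cdk1, Aurkb, Plk1, Birc5 and Foxm1 by library, up to 3 genes a direction of each other list, and check genes. Further genes (Ccnd1 at 8 h, the opposite-strand neighbours and members set beside others of their complex) were added after their values were seen. To see whether replicate numbers pair the libraries, deviations from the group mean were correlated between libraries of equal number. All 3 correlations were over 0.1 for Dex against vehicle in WT at 8 and 24 h (lowest 0.294 and 0.256) and in KO at 2 and 8 h (0.122 and 0.111), between the genotypes in vehicle at 2, 8 and 24 h and in Dex at 2 h (0.239, 0.229, 0.227 and 0.254), and between vehicle and untreated KO cells (0.13, 0.255 and 0.369). Those numbers were taken as pairs, but the log2 changes and p-values printed for genes come from the fit of group means without pairing. The count of called members was recomputed with the replicate block, on the compared groups alone, with DESeq2 1.42.0, with median-ratio scaling, without the filter, over genes with a mean of 5 CPM or more, with summed counts per genotype and number, without each library, and, added after seeing the data, without each replicate number. Genes' places come from the GENCODE annotation of GRCm38. The code was tested on simulated counts.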

Additional observations from a re-analysis of the deposited data

Results flagged for a closer look

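The Dex effect at 24 h differed from that at 8 h for 58 of the 59 genes, by a test of the difference between the effects (edgeR quasi-likelihood, Benjamini-Hochberg over all genes). The median difference was -1.97 on the log2 scale, and 58 genes were called in each of the 24 fits that left out 1 library. Cenpa differed in its Dex effect between 2 and 8 h (log2 0.53 ± 0.12 for 8 h minus 2 h). It was lower with Dex at 2 h and was not called at 8 h. Smc4 differed between the same times (log2 0.41 ± 0.09), with its rise at 8 h. Both calls held in 24 of 24 fits without 1 library.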

How the results depend on the processing

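Counts of called members were recomputed for 28 comparisons under 7 settings that kept all libraries, and 157 of 169 counts stayed within 1.5 times the first. The 58 falls after 24 h of Dex were counted as 58 under each of them and in each fit without 1 library; within WT or KO alone the count was 57 or 58. With the replicate number as a block, 5 members were called for vehicle at 8 h and 2 for Dex at 2 h, and no other count moved by over 1.5 times. With the compared groups alone the counts were 5 for vehicle at 8 h, 2, 14 and 4 for Dex at 2 h, at 8 h and for 8 h minus 2 h, 7 in WT and 9 in KO at 8 h, 1 in KO at 2 h, and 6 for Dex 2 h against untreated. DESeq2 called 5 for vehicle at 8 h (2203 of all genes) and 5 for KO against WT after 24 h of Dex (25 of all genes). Leaving out each library gave 1 to 2 for vehicle at 2 h, 1 to 4 at 8 h and 15 to 42 at 24 h, 1 to 2 for Dex at 2 h and 2 to 8 at 8 h, 1 to 4 in WT at 8 h, 1 to 3 in KO at 2 h and at 8 h, 10 to 17 for Dex 8 h against untreated and 0 to 3 for KO against WT after 24 h of Dex. Leaving out all libraries of replicate 1, 2 or 3, chosen after seeing the data, gave 43, 5 and 11 for vehicle at 24 h, 2 for vehicle at 2 h without number 1, 0 for vehicle at 8 h without number 2, 4, 2 and 3 for Dex at 8 h, where the direction of most calls turned without number 3 (1 higher, 2 lower), and, without number 2, 2 for Dex in WT at 2 h and at 8 h, 1 in KO at 2 h and at 8 h, and 7 for Dex 8 h against untreated. Apart from DESeq2, the shares of all genes called under these settings are not given here. Why these counts moved was not tested.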
